A study of Homo sapiens with 3 samples.

Results

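The OAS genes are the interferon-induced family of double-stranded RNA-binding enzymes and their relative OASL. They were found as all probe sets whose array annotation names OAS1, OAS2, OAS3 or OASL. This gave 4 genes of 11963 named genes, on 7 of 22277 probe sets: 2 sets each for OAS1, OAS2 and OASL, and 1 for OAS3. The family was chosen because its values differed between these arrays, so its differences from the sgTetOmut array are given as a description and support nothing further.

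The study transfected HEK293T cells, a human embryonic kidney line, with dCas9VP160, a nuclease-dead Cas9 joined to an activation domain, and asked how expression changed with the guide RNA. The 3 arrays were 1 with sgIL1RN1~3, aimed at the IL1RN promoter, 1 with sgTetO, aimed at the bacterial TetO promoter element, and 1 with sgTetOmut, a mutated form of sgTetO that served as the non-targeting control. All cells shared the activator, the Fugene HD transfection in 6-well plates and the culture medium, and the labels give no time after transfection. Each guide was measured on 1 array, so no test between guides was possible, no value has a replicate error, and the number of arrays limits the precision.

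When double-stranded RNA is present in the cytosol, as in infection by many viruses, OAS1, OAS2 and OAS3 bind it and join ATP into short chains of adenylate with 2'-5' links, called 2-5A. These chains act as a second messenger that leads to the cutting of viral and cellular single-stranded RNA. OASL has the same fold and binds double-stranded RNA, but the human protein makes no 2-5A. It carries ubiquitin-like domains at its end and is known in human cells to enhance signalling by the RNA sensor RIG-I. All members are induced by type I interferon through promoter elements built of GAAA repeats, to which a complex containing IRF9 binds.

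OAS1, OAS3 and OAS2 lie side by side in that order on chromosome 12 of GRCh38.p14. OAS1 spans chr12:112906962-112933219, OAS3 spans chr12:112938474-112973251 and OAS2 spans chr12:112978519-113011723, so the cluster covers 105 kb. OASL lies 8.01 Mb further along, at chr12:121017761-121039246. The RefSeq promoter table used here held 2 members, OAS1 and OAS3, each as 250 bases before and 50 bases after the annotated start. OAS2 and OASL are named only. The promoters are shown because the members differ together between the arrays and the GAAA repeat is the element by which interferon acts on this family. Capitals mark every match to GAAANGAAA or GAAANNGAAA on either strand, overlapping matches included. Both are printed 5' to 3' on the plus strand, OAS1 from chr12:112906712-112907011 and OAS3 from chr12:112938224-112938523.
OAS1: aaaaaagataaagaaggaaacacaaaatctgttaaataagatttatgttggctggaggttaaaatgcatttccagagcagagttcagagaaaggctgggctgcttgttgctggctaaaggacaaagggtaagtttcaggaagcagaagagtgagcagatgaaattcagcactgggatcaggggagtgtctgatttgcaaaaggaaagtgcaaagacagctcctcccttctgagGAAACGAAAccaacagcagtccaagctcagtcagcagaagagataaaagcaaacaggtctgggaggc
OAS3: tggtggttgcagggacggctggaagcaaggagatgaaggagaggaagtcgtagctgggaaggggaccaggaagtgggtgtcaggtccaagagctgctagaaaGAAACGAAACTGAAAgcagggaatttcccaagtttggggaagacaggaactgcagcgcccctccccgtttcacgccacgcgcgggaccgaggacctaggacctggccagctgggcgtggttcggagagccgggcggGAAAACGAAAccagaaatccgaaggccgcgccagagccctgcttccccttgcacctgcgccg

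The OAS1 window held 1 match, GAAACGAAA, from -17 to -9, counted with the first base of the gene as 0. The OAS3 window held GAAACGAAA from -148 to -140, which overlaps GAAACTGAAA from -143 to -134, and GAAAACGAAA from -12 to -3. Both windows thus contain the letters GAAACGAAAC in 1 stretch, as do 21 of the 35116 promoters in the table (0.0598%). At least 1 of the 2 spaced repeats was found in 2246 of the 35116 promoters (6.40%), and in 520 of the 9563 promoters of measured genes (5.44%). Of the 37 genes at least 2-fold lower on sgTetO than on sgTetOmut, 31 had a promoter in the table and 26 of these (83.9%) held a repeat. Without the members it was 24 of 29 (82.8%). Those genes were chosen by the same contrast, the letters searched were chosen with the OAS promoters in view, and a match is a description of sequence, not a site.

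**Figure D1:**
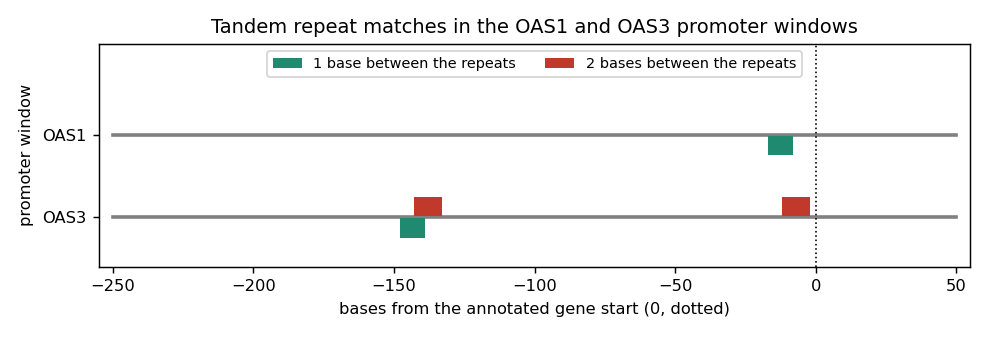
Positions of the repeat matches in the OAS1 and OAS3 promoter windows. The x axis is the distance in bases from the annotated gene start, each grey line is a window of 300 bases, green bars have 1 base between the repeats and red bars have 2; the match nearest to the start begins at -17 in OAS1 and at -12 in OAS3, and OAS3 holds an overlapping pair near -143.

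The deposited values were on a log2 scale, where a difference of 1 is 2-fold. Within each gene the sgIL1RN1~3 and sgTetO arrays were close to each other and the sgTetOmut array was highest. OAS1, whose product makes 2-5A, read 6.16 on the log2 scale with sgIL1RN1~3, 6.48 with sgTetO and 8.82 with sgTetOmut by set 202869_at. Its other set, 205552_s_at, read 4.02, 4.46 and 6.29 in the same order of guides. Both sets put OAS1 lowest on sgIL1RN1~3 and highest on sgTetOmut. In bulk RNA such as this, fewer cells with a transcript and less of it per cell cannot be told apart. By 202869_at the log2 difference of OAS1 from sgTetOmut was -2.66 (6.33-fold lower) with sgIL1RN1~3 and -2.34 (5.06-fold lower) with sgTetO. By 205552_s_at these differences were -2.27 (4.81-fold lower) and -1.83 (3.55-fold lower).

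OAS2, an enzyme with more than 1 copy of the OAS unit, had a log2 value of 4.98 on the sgIL1RN1~3 array, 5.08 on sgTetO and 8.48 on sgTetOmut by set 204972_at. Its difference from sgTetOmut was -3.50 (11.3-fold lower) with sgIL1RN1~3 and -3.40 (10.6-fold lower) with sgTetO, further from 0 than in the other 3 members. The gap was seen with 1 of the 2 OAS2 sets. The other, 206553_at, read 2.12 with sgIL1RN1~3, 2.36 with sgTetO and 2.47 with sgTetOmut. It was not above background on any array, where background is the highest of the 27 control sets for Bacillus subtilis transcripts, 3.40 on sgIL1RN1~3 and sgTetO and 3.29 on sgTetOmut. No fold is given for it. The annotation lists a different transcript for each of the 2 sets, and which OAS2 transcripts were present was not tested.

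OAS3, the longest enzyme of the family, had a log2 value of 6.33 on the sgIL1RN1~3 array, 6.56 on sgTetO and 8.57 on sgTetOmut by its only set, 218400_at. Its difference from sgTetOmut was -2.24 (4.73-fold lower) with sgIL1RN1~3 and -2.00 (4.01-fold lower) with sgTetO. OASL, the member without 2-5A synthesis, had log2 values of 4.74, 4.84 and 7.22 on sgIL1RN1~3, sgTetO and sgTetOmut by set 205660_at. For OASL the difference was -2.47 (5.55-fold lower) with sgIL1RN1~3 and -2.38 (5.20-fold lower) with sgTetO. The member that makes no 2-5A thus had a difference of like size to those of OAS1 and OAS3. The second OASL set, 210797_s_at, read 3.19 with sgIL1RN1~3 and 3.38 with sgTetO, against 5.43 with sgTetOmut. It was above background with sgTetOmut alone, so it was at least 4.06-fold lower on each of the other arrays. Sets ending in _s_at can match more than 1 transcript, and the OAS genes are related in sequence.

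**Figure D2:**
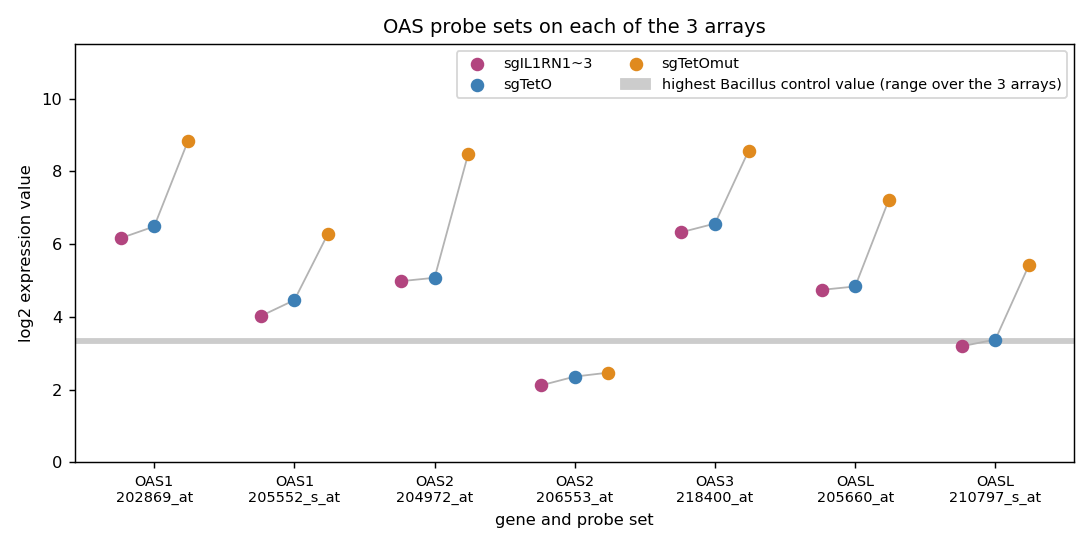
Log2 expression values (y axis) of the 7 OAS probe sets (x axis) on the sgIL1RN1~3, sgTetO and sgTetOmut arrays, 1 point per array, joined within a set; the grey band is the highest Bacillus control value. In 6 sets both other arrays lie lower than sgTetOmut, by differences of -1.83 or further from 0, and OAS2 set 206553_at lies below the band on all 3.

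A gene was counted as lower when it lay at least 1 log2 unit down and the higher of the 2 values reached the median of named genes on its array (6.23 on sgIL1RN1~3, 6.19 on sgTetO and on sgTetOmut), with the set of highest mean standing for each gene. All 4 OAS genes were counted on sgTetO against sgTetOmut, where 37 of 11963 genes (0.309%) were. All 4 were also counted on sgIL1RN1~3 against sgTetOmut, where 38 genes (0.318%) were. The rule that chose the family used these contrasts, so nothing is read from the counts. By probe set with no minimum level, 6 of the 7 OAS sets were at least 2-fold lower in each comparison, against 0.31% of all 22277 sets for sgTetO and 0.408% for sgIL1RN1~3. The median of the 4 genes was -2.57 with sgIL1RN1~3 and -2.36 with sgTetO relative to sgTetOmut, while that of all genes was 0.00 and -0.01. From the lowest difference of sgTetO minus sgTetOmut, OAS2 ranked 2, OASL 9, OAS1 10 and OAS3 15 among all genes. On sgIL1RN1~3 the ranks were 2 for OAS2, 8 for OAS1, 11 for OASL and 13 for OAS3. The 2 comparisons share the sgTetOmut array, and with 1 array per guide, a high sgTetOmut sample and 2 low samples cannot be told apart.

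The contrast of sgIL1RN1~3 with sgTetO does not involve that array. Here 0 of the 4 OAS genes were counted as 2-fold apart in either direction, as against 0.0836% of all genes. OAS2 and OASL lay below the median level on both arrays of this pair and could not have been counted at any difference. With no minimum level, 0 of the 4 were 2-fold apart, as against 0.226% of all genes, so the count is what nearly all genes gave. For sgIL1RN1~3 minus sgTetO the log2 difference of OAS1 was -0.32 (1.25-fold lower) and that of its second set -0.44 (1.36-fold lower). It was -0.24 for OAS3, and -0.09 for OAS2 and for OASL. Of the genes that reached the median level on either array, 7.65% had a difference at or below that of OAS1 and 12.7% at or below that of OAS3. The SD of this difference across those 6106 genes was 0.26, so OAS1 lay slightly beyond 1 SD and OAS3 within it. OAS2 and OASL were not among those genes.

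**Figure D3:**
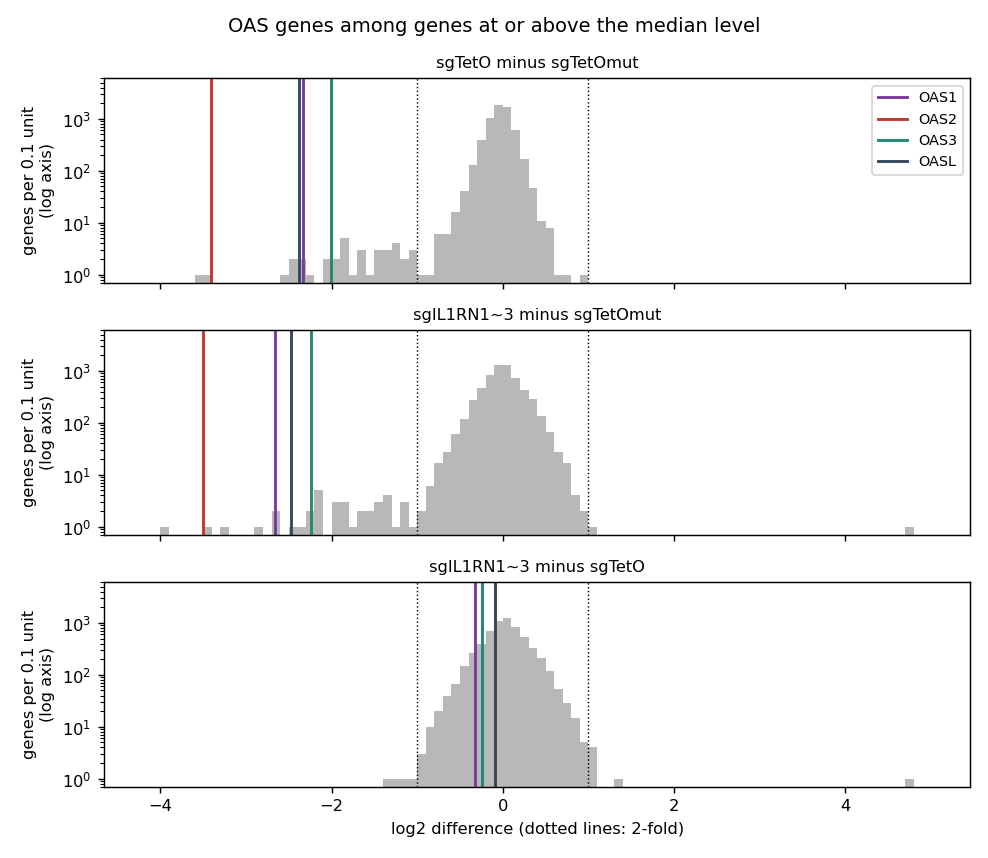
Distribution of log2 differences (x axis) over genes at or above the median level on either array of a pair, in bins of 0.1 with a logarithmic count axis, for sgTetO minus sgTetOmut, sgIL1RN1~3 minus sgTetOmut and sgIL1RN1~3 minus sgTetO; coloured lines mark the OAS genes. The OAS genes lie between -2.00 and -3.50 in the upper panels and between -0.09 and -0.32 in the lower panel, where the OAS2 and OASL lines coincide and both genes are below the level of the genes binned.

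The sgIL1RN1~3 array stood apart in the chip controls at the 5' ends of ACTB and GAPDH, which depend on RNA integrity and labelling. The ACTB control read 8.43 with sgIL1RN1~3, 7.48 with sgTetO and 7.61 with sgTetOmut, and the GAPDH control read 9.83, 8.99 and 9.17. The sgTetO minus sgTetOmut difference was -0.13 at ACTB and -0.18 at GAPDH. The sgIL1RN1~3 minus sgTetOmut difference was 0.82 at ACTB and 0.66 at GAPDH. In the middle sets of ACTB and GAPDH it was 0.64 and 0.54, and in their 3' sets 0.07 and 0.03. For sgTetO minus sgTetOmut the middle sets differed by -0.05 and -0.04. The chip's middle sets for 28S and 18S ribosomal RNA differed from sgTetOmut by 0.31 and 0.34 on sgIL1RN1~3 and by -0.17 and -0.22 on sgTetO. Their 5' sets differed by 0.08 and 0.11 on sgIL1RN1~3 and by 0.18 and -0.48 on sgTetO. Their 3' sets differed by -0.27 and -0.10 on sgIL1RN1~3 and by -0.27 and -0.19 on sgTetO. The part of these control values in the OAS differences was not tested. HEK293 lineage markers were present: 8 of 9 were measured, and each of the 8 was above background on at least 1 array. Of these 8, 5 reached the median level on at least 1 array. The brightest, the neurofilament gene NEFL, read 10.4 with sgIL1RN1~3, 10.2 with sgTetO and 10.1 with sgTetOmut. Of 7 measured blood cell markers, 4 were at background on all 3 arrays, among them PTPRC, and 0 reached the median level. Their summed log2 values were 24.5, 24.1 and 24.1 on sgIL1RN1~3, sgTetO and sgTetOmut. Of the 6 measured fibroblast markers, 4 were above background on at least 1 array and 3 reached the median level. They summed to 30.3, 29.9 and 29.9.

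Measured genes around the OAS loci were not counted as lower. Of all genes, 0.309% were counted as lower on sgTetO and 0.318% on sgIL1RN1~3. The counts near the loci are thus what nearly all genes gave. Of the 10 nearest measured genes on each side of the OAS1-OAS3-OAS2 cluster, 0 of 20 were at least 2-fold lower with sgIL1RN1~3 or with sgTetO than with sgTetOmut, and 0 were higher. Among the 17 of them above background on some array, differences of sgTetO from sgTetOmut ran from -0.24 to 0.13. RPH3A, the nearest on one side, was at background on all 3 arrays (2.63 with sgIL1RN1~3, 2.48 with sgTetO, 2.61 with sgTetOmut), as was RASAL1 on the other side (3.39, 3.26 and 3.10). PTPN11, a phosphatase gene next to RPH3A, read 11.6 on each array. DDX54, an RNA helicase gene beyond RASAL1, read 6.64 with sgIL1RN1~3, 6.38 with sgTetO and 6.47 with sgTetOmut. Around OASL, 0 of 20 neighbours passed the limit, and the 18 above background differed by -0.32 to 0.05 for sgTetO minus sgTetOmut. The nearest were CLIC1P1, annotated as a pseudogene and at background, and P2RX7, an ATP-gated channel gene that read 3.43 with sgIL1RN1~3, 3.40 with sgTetO and 3.37 with sgTetOmut, at the edge of background.

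**Figure D4:**
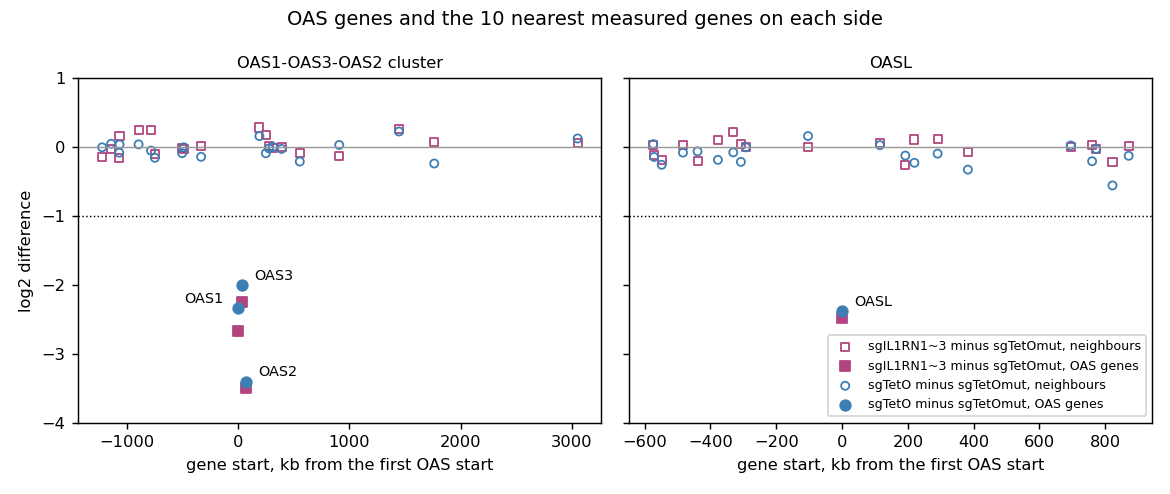
Log2 differences from sgTetOmut (y axis) of the OAS genes (filled) and the 10 nearest measured genes on each side (open), against the distance of each gene's start in kb from the first OAS start; squares are sgIL1RN1~3, circles are sgTetO and the dotted line is 2-fold. The neighbours lie between -0.55 and 0.29, and the OAS genes lie at -2.00 or lower.

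The measured genes that act after the OAS enzymes did not pass the limit, and neither did nearly all genes. The shares of all genes counted as lower than on sgTetOmut were 0.309% on sgTetO and 0.318% on sgIL1RN1~3. Of the 2-5A pathway list of 4, 3 were measured and 0 were 2-fold apart in any comparison, with a median of -0.09 for sgIL1RN1~3 and -0.06 for sgTetO relative to sgTetOmut. ABCE1, a ribosome recycling ATPase first described as an inhibitor of the 2-5A pathway, differed from sgTetOmut by -0.09 with sgIL1RN1~3 and -0.06 with sgTetO. PDE12, a phosphodiesterase that degrades 2-5A, read 7.08 with sgIL1RN1~3, 6.99 with sgTetO and 7.08 with sgTetOmut. AKAP7, an anchoring protein with a domain that can also cut 2-5A, read 7.97, 8.14 and 8.14. The 13 measured genes of cytosolic RNA decay, of 16 listed, had medians of 0.01 and -0.06 for sgIL1RN1~3 and sgTetO relative to sgTetOmut, and 0 were 2-fold apart. CNOT1, the scaffold of a deadenylase complex, differed from sgTetOmut by -0.39 with sgIL1RN1~3 and -0.21 with sgTetO, though its other set differed by 0.29 and 0.03. UPF1, a helicase of nonsense-mediated decay, read 6.36 with sgIL1RN1~3, 6.32 with sgTetO and 6.37 with sgTetOmut by its brighter set. Its other set read 5.16, 4.31 and 4.15, which was 1.01 higher with sgIL1RN1~3 than with sgTetOmut, the opposite direction to the OAS genes and below the median level.

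No measured relative of the OAS fold passed the limit. Of all genes, 0.309% were counted as lower on sgTetO and 0.318% on sgIL1RN1~3, so this is what nearly all genes gave. Of 17 listed nucleotidyltransferase genes 12 were measured, and 8 of these reached the median level on at least 1 array. Of the 12, 0 were 2-fold apart from sgTetOmut on either array, and their medians were -0.06 with sgIL1RN1~3 and -0.10 with sgTetO. POLB, a DNA repair polymerase, differed from sgTetOmut by -0.47 with sgIL1RN1~3 and -0.21 with sgTetO, and MTPAP, the mitochondrial poly(A) polymerase, by -0.26 and -0.20. Ubiquitin-like proteins, whose domain OASL carries, gave 1 of 9 measured members, of 14 listed, past the limit on each array, with medians of -0.03 with sgIL1RN1~3 and -0.07 with sgTetO. That member was ISG15, an interferon-induced modifier, which read 7.49 with sgIL1RN1~3 and 7.53 with sgTetO, against 9.37 with sgTetOmut. GABARAP, an autophagy protein, differed from sgTetOmut by 0.01 with sgIL1RN1~3 and -0.22 with sgTetO.

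Among proteins that share the ligand of the OAS enzymes, double-stranded RNA, 3 of 16 measured members, of 18 listed, were at least 2-fold lower on both arrays and 0 were higher. The share of all genes counted as lower was 0.309% on sgTetO and 0.318% on sgIL1RN1~3. This list was chosen with earlier results of these data known, so nothing is read from its count. The list's median was -0.18 with sgIL1RN1~3 and -0.14 with sgTetO relative to sgTetOmut. IFIH1, which encodes the sensor MDA5, read 6.58 with sgIL1RN1~3 and 7.35 with sgTetO, against 9.39 with sgTetOmut. RIGI, the sensor gene linked to OASL, read 8.29 and 8.75, against 10.2 with sgTetOmut. TLR3, an endosomal sensor gene, read 5.19 and 5.43, against 6.47 with sgTetOmut. These 3 sensors are interferon-induced, as is EIF2AK2, the gene of the kinase PKR, which differed by -0.57 with sgIL1RN1~3 and -0.66 with sgTetO and did not reach the limit. The second IFIH1 set differed by -1.19 and -0.91. The list's other 12 members did not pass the limit, among them the RNA-processing factors DICER1 and STAU1. ADAR differed by -0.21 with sgIL1RN1~3 and -0.29 with sgTetO, DHX58 by -0.56 with both, and ZBP1 by -0.15 and -0.02. DHX58 and ZBP1 were below the median level on all 3 arrays and could not have been counted. Which of the list's members respond to interferon in these cells was not tested.

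Upstream of the family, 1 of 10 measured signalling genes, of 12 listed, passed the limit on each array, and the medians were -0.18 with sgIL1RN1~3 and -0.19 with sgTetO. It was IRF9, the DNA-binding part of the complex that acts on OAS promoters, at 7.41 with both sgIL1RN1~3 and sgTetO, against 8.57 with sgTetOmut. For all genes the shares counted as lower were 0.309% on sgTetO and 0.318% on sgIL1RN1~3. Only 7 of the 10 reached the median level on at least 1 array. IFNAR1, IRF1 and IRF7 did not and could not have been counted. IRF7, which drives interferon genes, differed from sgTetOmut by -0.56 with sgTetO. With sgIL1RN1~3 it was not above background, so it was at least 1.76-fold lower there. IRF1 differed by -0.35 and -0.57, and IRF2 by -0.37 and -0.35. Of 14 measured interferon genes, of 18 listed, 13 were at background on all 3 arrays, and the medians were -0.02 with sgIL1RN1~3 and 0.02 with sgTetO. Among all named genes, 76.5% were above background on sgIL1RN1~3, 76.0% on sgTetO and 77.8% on sgTetOmut. The exception among the interferon genes, IFNB1, which encodes interferon beta, was above background with sgTetOmut at 5.98. With sgTetO it was barely so at 3.53, and with sgIL1RN1~3 it was not above background at 3.40. It was at least 5.98-fold lower with sgIL1RN1~3 and 5.48-fold lower with sgTetO than with sgTetOmut. Its value did not reach the median level, so it was not counted by the rule.

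**Figure D5:**
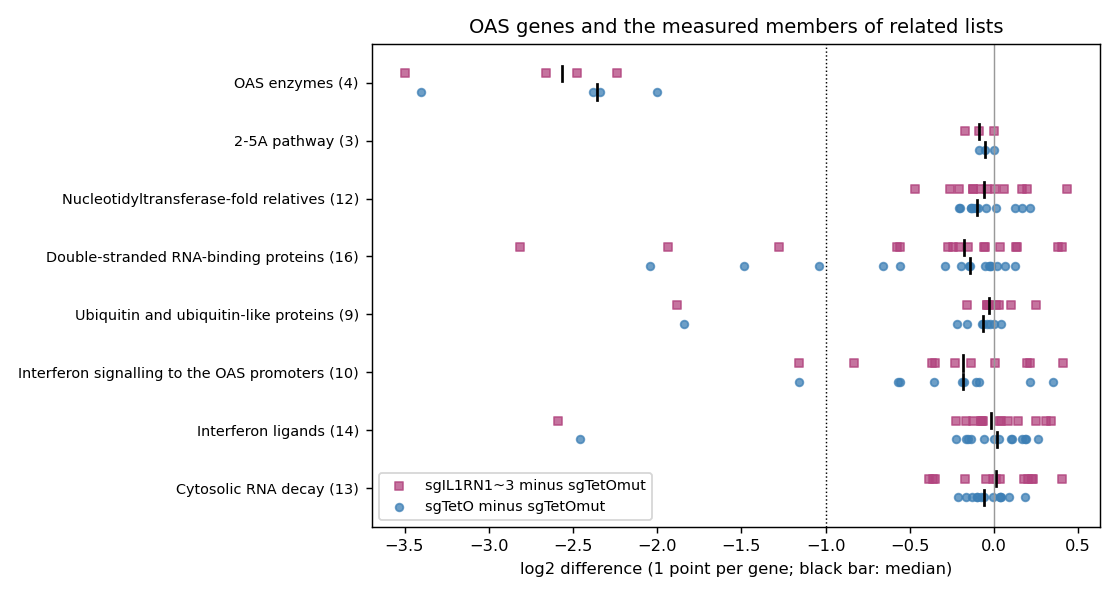
Log2 differences from sgTetOmut (x axis) of the OAS genes and of the measured members of 7 related lists (rows, number of genes in brackets); squares are sgIL1RN1~3, circles are sgTetO, black bars are medians and the dotted line is 2-fold. The OAS genes lie at -2.00 or lower, while the median of each other list lies between -0.19 and 0.02.

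The genes whose pattern over the 3 arrays was most like each member were found by the distance between pairs of differences from sgTetOmut, in log2 units, over 5982 genes at or above the median level on sgTetOmut. OAS1 was nearest to OASL (distance 0.19), then to IFIT3 (0.25) and SP100 (0.29). OASL was nearest to SP100 (0.12), then to OAS1 (0.19) and IFIT3 (0.26). OAS3 was nearest to IFI44L (0.12), IFITM1 (0.14) and UBE2L6 (0.26). OAS2 stood further from any gene, with RSAD2 at 0.46, IFI44 at 0.94 and IFIT3 at 1.20. RSAD2 encodes the antiviral enzyme viperin, IFIT3 a partner of the RNA-binding protein IFIT1, SP100 a nuclear body protein, IFITM1 a membrane protein that restricts virus entry and UBE2L6 the ISG15-conjugating enzyme. With 3 arrays, likeness rests on 2 differences that share the sgTetOmut array. The family was chosen by these differences, and the genes compared were limited by their level on that array. OAS2 ranked 2 from the lowest in both differences, where few genes lie, so its larger distances are not read further.

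RSAD2 read 5.61 with sgIL1RN1~3 and 6.00 with sgTetO, against 9.55 with sgTetOmut, and had the lowest difference of all genes on both arrays. IFI44L read 7.09 and 7.42, against 9.31 with sgTetOmut. Besides OAS1 itself and OASL, the 7 genes named as nearest all had a promoter in the RefSeq table, and 5 held a repeat in that window. SP100 and UBE2L6 held none of these letters there. All 7 were picked by the differences from sgTetOmut, so this share supports nothing further. A repeat was found in 24 of 29 promoters of genes lower on sgTetO other than the members. In promoters of all measured genes the share was 5.44%. The 5 nearest genes with a repeat are shown as 30 bases around the match nearest to the start, on the strand that reads GAAA. Every match in the window is in capitals, to be read beside the OAS1 and OAS3 promoters printed above. They are IFIT3 from chr10:89327865-89327894 on the minus strand, RSAD2 from chr2:6865814-6865843 on the plus strand, IFI44 from chr1:78649766-78649795 on the minus strand, IFI44L from chr1:78620365-78620394 on the plus strand and IFITM1 from chr11:314024-314053 on the plus strand, all in GRCh38.p14.
IFIT3: gaggaaactgGAAAGTGAAActaatttaaa
RSAD2: agcgttgcgggGAAACGAAAgccggaggcc
IFI44: aagactcagaGAAAGGAAACTGAAActcag
IFI44L: tcctagtgagGAAAAAGAAAgttagtggca
IFITM1: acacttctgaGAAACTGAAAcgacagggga
RSAD2 shows the same letters GAAACGAAA as OAS1 and OAS3, and IFITM1 and IFI44 the same GAAACTGAAA as OAS3. In IFI44 these letters overlap GAAAGGAAA. IFITM1 has paralogs such as IFITM3, and whether its probe set also matches their transcripts was not tested.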

How the data were processed

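Total RNA of 3 samples was measured on 3 single-channel arrays. The deposited log2 values cover 22277 probe sets, none missing, and their unit was inferred from a range of 1.36 to 14.5. The submitters' processing notes name affy as the authors' software. No version, background correction or normalization is stated there. At each rank the 3 deposited columns differed from their average by at most 0.104, so differences are relative to the bulk of genes.

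GEO's platform annotation gave 1 symbol to 19070 probe sets (11963 genes), and the gene identifiers of 19058 of them were in the GRCh38.p14 gene table. Each gene was represented by its brightest set on average. Differences of log2 values were counted at 1 log2 unit. With 1 array per guide there was no test. Named were all members with every probe set, the measured genes of the 2-5A pathway, up to 4 genes per list by the size of sgTetO minus sgTetOmut, the 3 genes nearest to each member, and neighbours on the chromosome. DDX54 and PTPN11, DICER1 and STAU1, ADAR, DHX58 and ZBP1, and UPF1, were named after their values were seen. The members and lists were chosen with earlier results of these data known. List entries without a probe set of their own were not analysed here. Promoters came from RefSeq (GRCh38.p14). Python 3.11.15, numpy 2.4.6, pandas 2.3.3, matplotlib 3.10.9, R 4.3.3 and limma 3.58.1 were used. Alternatives were quantile and cyclic loess scaling, other probe sets per gene, an offset of 16 before the logarithm, size limits of 1.5-fold and 3-fold, and other minimum levels.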

Additional observations from a re-analysis of the deposited data

How the results depend on the processing

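Under the planned scaling, probe set and offset alternatives, all single-gene differences kept their sign (60 of 60, the OAS2 set below background included). The offset of 16 cannot change the sign of a set's difference. The mean of sets cannot change it where all sets of a gene share it. Size limits and minimum levels give no single-gene difference. Of the 60, 49 stayed within 0.26 log2 units of the value given. That limit was the SD of sgIL1RN1~3 minus sgTetO over genes at or above the median level. The 11 that moved further were all differences from sgTetOmut, and OAS2 had more of them than any other member. With 16 added to the linear values, OAS2 differed from sgTetOmut by -2.91 with sgTetO and -2.97 with sgIL1RN1~3. OAS3 has no other probe set, so its values with the mean of all sets and with the set of lowest mean could not differ. Those cases are among the 60 and the 49. The median OAS difference of sgTetO minus sgTetOmut was -2.04 with the mean of all probe sets, -1.91 with the probe set of lowest mean and -2.02 with 16 added to the linear values. The median of sgIL1RN1~3 minus sgTetOmut was -2.30, -2.24 and -2.23 under the same alternatives. The count of OAS genes at least 2-fold lower was 3 of 4 on both arrays with the mean of all sets and with the set of lowest mean, and 4 of 4 under the others. The gene not counted was OAS2. By the mean of its 2 sets OAS2 differed by -1.76 with sgTetO and -1.92 with sgIL1RN1~3, past the limit, but its level on sgTetOmut, 5.47, was below the median of genes summarised the same way, 5.60. Its set of lowest mean was below background on all 3 arrays, so no difference is given for it. Choosing the set by its value on sgTetO, an alternative added after seeing the data, gave the same set for 4 of 4 members.

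Counts over all genes moved by more than 1.5 times in these cases. Genes lower on sgTetO than on sgTetOmut numbered 21 at 3-fold, against 37. Genes lower on sgIL1RN1~3 than on sgTetOmut numbered 91 at 1.5-fold and 24 at 3-fold, against 38. Genes apart between sgIL1RN1~3 and sgTetO numbered 38 with the set of lowest mean, 5 with 16 added, 200 at 1.5-fold, 1 at 3-fold, 27 with no minimum level and 26 with background as the minimum, against 10. No paired analysis was possible because each guide had 1 array. No array was left out, since each is the only one of its guide. Signal near background limits the second OASL set and both values of IFNB1 outside sgTetOmut.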
